A study of Homo sapiens with 5 samples.

Results

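Short coding sequences of 30 to 100 codons were examined by ribosome profiling of HEK293T cells, a line derived from human embryonic kidney. A row of the deposited tables was kept where its length lay in that range and its footprints summed to at least 500 over the 5 libraries. It was left out where a longer row within 10 rows of the table held at least the same counts in every library, since its footprints may then be those of the longer frame. This kept 238 of the 182398 rows, or 238 of the 93916 rows that carry a length. Of the 5 libraries, 1 came from QTRT1 knockout cells, 2 from cells lacking QTGAL and 2 from cells lacking QTMAN. The sample titles add numbers to the gene name that the labels leave unexplained, so whether the 2 libraries of a genotype are clones, cultures or repeat runs is not known. No treatment is given, and unmodified cells were not analysed here. Every comparison is thus between knockouts. Totals ran from 12002044 to 25291912 counts per library, and each p-value measures the spread between libraries that may be technical.

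A footprint is the piece of mRNA that a ribosome shields from RNase I, and footprints per codon measure how densely a frame is occupied. Among human proteins of this size are several proteins of the ribosome, small subunits of the mitochondrial respiratory chain, and secreted or membrane peptides. Queuosine is a modified guanosine that the enzyme with QTRT1 as its catalytic subunit puts at the wobble position of the tRNAs that carry tyrosine, histidine, asparagine or aspartate. QTGAL and QTMAN then attach galactose (tyrosine tRNA) and mannose (aspartate tRNA) to it, and the title of the series raises how these sugars bear on translation. Footprints alone do not tell mRNA amount from translation, and RNA levels were not analysed here. The tables name rows by identifiers without gene symbols, and 0 of the 238 identifiers matched the reference table, so rows are given by identifier and length, with no gene named and no sequence shown.

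Most well counted short rows lay beside a longer row that could hold their footprints. Of 16685 rows of 30 to 100 codons, 13902 had a count and 2000 reached 500. The rule removed 1762 of these 2000, or 88.1%. All 41 rows of 30 to 37 codons that reached 500 were among those removed, so the shortest sequence kept has 38 codons. The median length was 80 codons, with 8 sequences of up to 50 codons, 70 of 51 to 75 and 160 of 76 to 100, of which 10 have exactly 100.

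The 238 rows are not 238 independent measurements. They held 161 distinct sets of counts, and 114 rows shared their counts with another. They fell into 112 stretches, a stretch being rows that follow each other within 20 rows, and 58 of these held 1 sequence. The largest identical set was 10 rows of 76 codons with 8969 counts each. In 33 stretches the counts differed between rows, and the densest row of a stretch exceeded the sparsest by a median of 1.23-fold and at most 5.19-fold. Stretches are given beside the counts of rows below.

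Many sequences kept by the rule still had a counted longer row nearby. Its summed counts are given as a percentage of the sequence's own sum, and whether both rows share footprints was not examined. For the best counted longer row within 10 rows this was under 10% for 59 of them, 10% to under 50% for 71, 50% to under 90% for 57, and at least 90% for 51. A longer row can exceed 100% of the sum and still miss the rule, because the rule asks for at least the same counts in every library. Only 15 sequences had no counted longer row in reach. From the lowest to the highest percentage, the median densities of these groups were 0.419, 0.487, 0.277 and 0.240 CPM per codon. CPM are counts scaled to the library size after TMM normalization. The quartiles of the outer groups overlapped, from 0.110 to 1.06 in the first and from 0.113 to 0.547 in the last. Above 1 CPM per codon lay 15 of the 59 rows of the first group, in 9 stretches, against 1 of the 51 rows of the last.

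**Figure D1:**
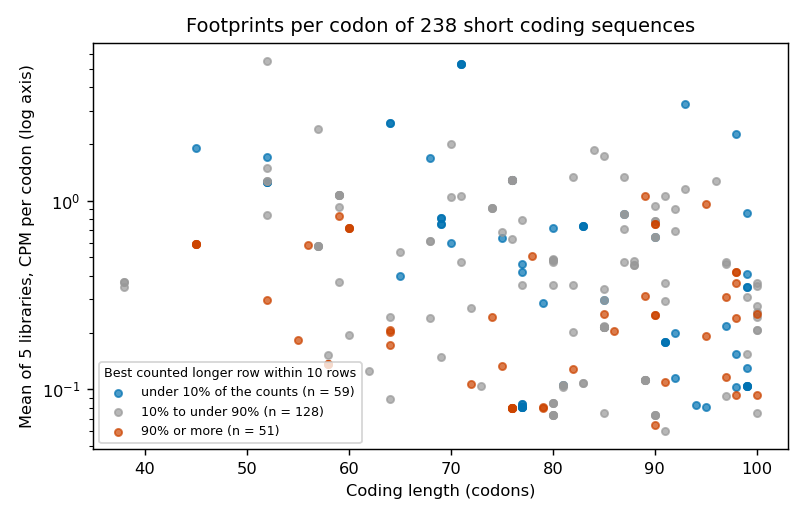
Mean footprint density over the 5 libraries (CPM per codon, log axis) against coding length in codons, 1 point per sequence. Colours give the summed counts of the best counted longer row within 10 rows, as a percentage of the sequence's own sum. The 44 sequences above 1 CPM per codon span lengths from 45 to 98 codons, and 1 of them is in the group of at least 90%.

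Density spanned from 0.0602 to 5.49 CPM per codon, with a median of 0.357 and quartiles of 0.130 and 0.785. By length, the medians were 0.587 for up to 50 codons, 0.715 for 51 to 75 and 0.249 for 76 to 100. Rows of over 100 and up to 200 codons under the same count minimum and leave-out rule (1188 rows) had a median of 0.180, and those of over 200 codons (8300 rows) had 0.0279. The minimum of 500 counts asks for a higher density of a shorter frame, so this order is set in part by the rule. Above 1 CPM per codon lay 18.5% of the short sequences, 14.4% of rows of over 100 and up to 200 codons and 1.47% of longer ones. Median summed counts were 2600 for the short sequences, 2446 for rows of over 100 and up to 200 codons and 1493 for longer ones. Within the short sequences they were 2388 for up to 50 codons, 4050.5 for 51 to 75 and 2128.5 for 76 to 100.

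Footprints were concentrated in few short frames. With 1 row per stretch, the 10 densest stretches of 112 held 36.9% of the counts. The densest row, uc004erx.3 with 52 codons, stood at 5.84 CPM per codon in the QTRT1 library, 5.17 and 5.76 in QTGAL replicates 1 and 2, and 5.03 and 5.67 in QTMAN replicates 1 and 2. Its 2 genotypes with replicates overlapped and the QTRT1 library was the highest by a small margin. The next, uc002jka.4 with 71 codons and 2 further rows of identical counts, had no counted longer row in reach. It stood at 4.38 in the QTRT1 library, 4.41 and 5.99 in the QTGAL libraries, and 5.91 and 5.80 in the QTMAN libraries. The libraries of QTRT1 and QTGAL replicate 1 were thus the low ones, and the 2 QTGAL libraries lay further apart than either QTMAN library from QTGAL replicate 2.

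Between 51 and 75 codons, the third densest stretch held uc021yba.2 with 64 codons. It was even across libraries, from 2.44 CPM per codon in QTGAL replicate 1 to 2.81 in QTGAL replicate 2, with the other 3 between them. The densest of 76 to 100 codons was uc002vgf.4 with 93 codons, at 3.44 in the QTRT1 library, 2.95 and 3.23 in the QTGAL libraries and 3.27 and 3.31 in the QTMAN libraries. For uc021xxr.2, of 98 codons, the values were 2.18, 2.12 and 2.59, and 2.13 and 2.32 CPM per codon in the same order. For uc002ycr.4, of 84 codons, they were 1.75, 1.79 and 1.95, and 1.88 and 1.94. For uc002vgf.4 both QTGAL libraries lay below the other 3, and for uc021xxr.2 and uc002ycr.4 they enclosed both QTMAN libraries. The edgeR log2 fold changes of QTGAL against QTMAN knockout for these 6 rows of over 50 codons ran from -0.17 to 0.083, with adjusted p-values from 0.887 to 0.983.

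The shortest class was thin, with 8 rows in 3 stretches. Its densest row, uc002sow.2 with 45 codons, stood at 1.84 CPM per codon in the QTRT1 library, 1.64 and 2.10 in the QTGAL libraries, and 1.76 and 2.16 in the QTMAN libraries. The row uc061hjx.1, of 38 codons, held 0.328, 0.350 and 0.390, and 0.469 and 0.317 in the same order. The row uc064yaa.1, also of 45 codons and 1 of 4 with identical counts, stood apart in 1 library. It held 0.314 CPM per codon in QTGAL replicate 1, against 0.681 in QTGAL replicate 2, 0.647 in the QTRT1 library and 0.580 and 0.710 in the QTMAN libraries. QTGAL replicate 1 had 337 counts there and QTGAL replicate 2 had 364, although its total was 23470931 against 12002044. The counts of a longer row within 10 rows summed to 102% of this row's sum.

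**Figure D2:**
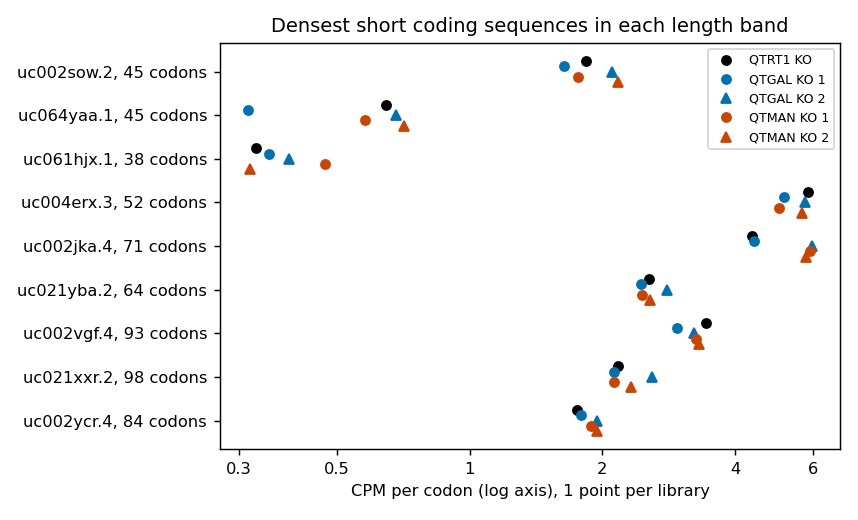
Footprint density (CPM per codon, log axis) of the 3 densest sequences in each length band, 1 point per library, circles for replicate 1 and triangles for replicate 2 of QTGAL and QTMAN knockout. The row uc064yaa.1 has 1 low point, QTGAL replicate 1 at 0.314, and uc002jka.4 has 2, at 4.38 and 4.41.

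The short sequences together took about the same part of every library. Their share of all counts was 1.06% in the QTRT1 library, 1.07% and 1.11% in QTGAL replicates 1 and 2, and 1.13% and 1.05% in QTMAN replicates 1 and 2. The group means, 1.09% ± 0.031 for QTGAL and 1.09% ± 0.056 for QTMAN (SD, n = 2 each), differed by 0.00013 percentage points, far less than the 0.043 and 0.079 between libraries of 1 genotype. The QTRT1 library lay 0.028 percentage points under the mean of both, also less than those differences. With 1 row per stretch the shares were 0.526%, 0.544% and 0.559%, and 0.558% and 0.534%, in the same order. The QTRT1 library was then the lowest of the 5, 0.023 percentage points under both, more than the 0.015 separating the QTGAL pair and about the 0.024 separating the QTMAN pair. With 1 row per set of identical counts it lay 0.020 under both, with 0.010 and 0.047 separating those pairs, and was not the lowest. For the 10 densest stretches they were 0.191% in the QTRT1 library, 0.189% and 0.214% in QTGAL knockout, and 0.204% and 0.207% in QTMAN knockout, so the QTGAL libraries enclosed the rest.

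Single sequences differed between libraries of a genotype by more than counting error. The ratio of the highest to the lowest library had a median of 1.31 over the 238 rows, from 1.08 to 2.95. It was under 1.5 for 195 rows and over 2 for 12 rows in 6 stretches. Between the 2 QTGAL libraries the median absolute log2 difference was 0.14, where counting error alone gives 0.065. Between the 2 QTMAN libraries it was 0.15, against 0.056. Rows within 2 standard errors of counting numbered 156 of 238 for QTGAL and 144 for QTMAN. Across the genotypes, the 4 QTGAL-QTMAN pairs of libraries had medians from 0.12 to 0.16, around the values within a genotype. The QTRT1 library differed from the other 4 by medians from 0.16 to 0.21. In rows of over 100 and up to 200 codons the same medians were 0.17 within QTGAL and 0.13 within QTMAN knockout, so the spread of the short rows was of similar size.

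The excess over counting error differed between the genotypes and the count classes. For the 16 sequences with 10000 counts or more, in 12 stretches, the median difference between the QTGAL libraries was 0.20 against 0.027 from counting, and 3 of 16 lay within 2 standard errors. For the QTMAN libraries it was 0.055 against 0.023, with 10 of 16 within 2 standard errors. For the 65 sequences under 1000 counts, 53 lay within 2 standard errors in QTGAL and 58 in QTMAN knockout. In the classes between, of 52 and 105 sequences, the QTMAN libraries differed by medians of 0.25 and 0.15 against 0.064 and 0.041 from counting. For QTGAL the middle classes gave 0.095 against 0.083 and 0.12 against 0.047, below the 0.20 of the rows with 10000 counts or more. The class under 1000 counts gave 0.20 against 0.13 for QTGAL and 0.17 against 0.11 for QTMAN. The labels mention no molecular identifiers, so counting error here covers reads only.

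**Figure D3:**
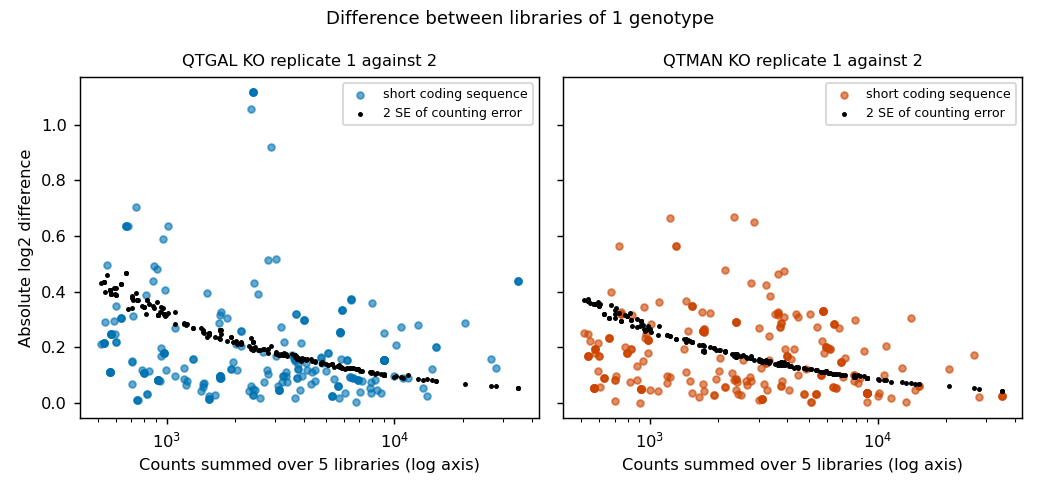
Absolute log2 difference between replicates 1 and 2 of QTGAL knockout (left) and of QTMAN knockout (right) against counts summed over 5 libraries (log axis), 1 coloured point per sequence, with 2 standard errors of counting error as small black points. In all, 156 of 238 sequences lie at or under the black points on the left and 144 on the right.

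QTGAL and QTMAN knockout were set against each other to ask whether short frames are read differently when the galactose or the mannose enzyme is missing. No short sequence was called different. The edgeR quasi-likelihood test, adjusted over all 60966 tested rows, called 0 of 238, where it called 0% of all rows. All 238 were tested. At an unadjusted p under 0.05 there were 21 rows in 11 stretches, 8.82% against 6.48% of all rows. DESeq2 called 0 of the 80 short rows to which it assigned an adjusted p, and 12 of 4231 among all such rows. The median log2 fold change was 0.00084, against 0.00024 over all rows, and 120 rows lay higher and 118 lower in QTGAL knockout. The median absolute log2 fold change was 0.094 with a median SE of 0.14. Both QTGAL libraries lay above both QTMAN libraries for 30 rows, or 12.6%, against 18.3% of all rows. They lay below both for 41 rows, or 17.2%, against 18.3%.

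Differences beyond 0.5 on the log2 scale were found in 13 sequences of 3 stretches, or 5.46% of the short rows. Under the same count minimum and leave-out rule, rows of over 100 and up to 200 codons gave 1.09% and longer ones 2.16%. Of the 13 sequences, 9 were 1 stretch of rows of 85 codons. In its row uc002kca.3, QTGAL knockout had 14.5 and 15.4 CPM and QTMAN knockout 24.5 and 20.6 CPM, with the QTRT1 library at 15.9 CPM. The QTRT1 library lay just above the QTGAL libraries. The fitted log2 difference was -0.59 ± 0.15 (SE, edgeR adjusted p = 0.568). With 1 QTGAL or QTMAN library left out, this difference ran from -0.72 to -0.46, in fits that leave 1 residual degree of freedom. The 9 rows of the stretch held 4 distinct sets of nearly equal counts, so they are not 9 separate results. The stretch lies at rows 156051 to 156064, where neighbouring rows moved the same way. Relative to the mean of 5 libraries, other well counted rows within 500 rows of uc002kca.3 stood at -0.24 and -0.16 in the QTGAL libraries and 0.080 and 0.21 in the QTMAN libraries (median log2 deviation). With that local shift taken off, the log2 fold changes of the 9 rows ran from -0.260 to -0.255, and the part of the neighbourhood in the result was not tested.

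The row uc002jne.4, of 96 codons, was likewise lower in QTGAL knockout, at 103 and 109.6 CPM against 139.6 and 141.5 CPM, with the QTRT1 library at 114 CPM. The fitted log2 difference was -0.40 ± 0.10 (SE, edgeR adjusted p = 0.596), and -0.16 with the local shift taken off. In the other direction stood uc061cji.1, of 52 codons, at 101.3 and 95.6 CPM in QTGAL and 77.4 and 81.3 CPM in QTMAN knockout, with the QTRT1 library at 86.1 CPM. The fitted log2 difference was 0.31 ± 0.11 (SE, edgeR adjusted p = 0.733), and 0.33 with the local shift taken off. The row uc001hai.4, of 93 codons, had 118 and 126 CPM in QTGAL and 102 and 100.1 CPM in QTMAN knockout. Its QTRT1 value, 91.6 CPM, lay below all 4. The fitted log2 difference was 0.27 ± 0.10 (SE, edgeR adjusted p = 0.749). None of these 4 rows, chosen among those without overlap, passed the adjusted threshold.

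The QTRT1 library was set against both glycosyltransferase knockouts to ask whether short frames are read differently when the inserting enzyme itself is missing. Again no short sequence was called. The edgeR test called 0 of 238 against QTGAL knockout, 0 against QTMAN knockout and 0 against their mean, where it called 0.00984%, 0.116% and 0.161% of all rows. At an unadjusted p under 0.05 there were 33, 40 and 36 rows, or 13.9%, 16.8% and 15.1%, where the shares of all rows were 10%, 11.4% and 11.2%. DESeq2 called 0 of 171, 1 of 164 and 1 of 238 short rows with an adjusted p. Among all rows with an adjusted p it called 51 of 14868, 163 of 12505 and 165 of 27870. These 3 comparisons share the QTRT1 library, which has no replicate and was assumed to vary like the others.

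The short sequences lay slightly more often on the low side in the QTRT1 library. Against the mean of both, 140 lay lower and 98 higher, with a median log2 fold change of -0.060, against -0.0019 over all rows and a median SE of 0.16. The QTRT1 library lay below all 4 others for 82 rows in 47 stretches, or 34.5%, against 24.4% of all rows. It lay above all 4 for 50 rows in 22 stretches, or 21.0%, against 24.8%. Rows of over 100 and up to 200 codons under the same count minimum gave nearly the same values, with 34.0% below all 4, 23.6% above and a median of -0.048. Rows of over 200 codons gave 26.6% and 26.3%, with a median of -0.0030. By band, the medians of the short rows were 0.076 up to 50 codons, -0.043 for 51 to 75 and -0.071 for 76 to 100. The first band holds 8 rows. Taken against QTGAL and against QTMAN alone, the medians were -0.042 and -0.077.

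**Figure D4:**
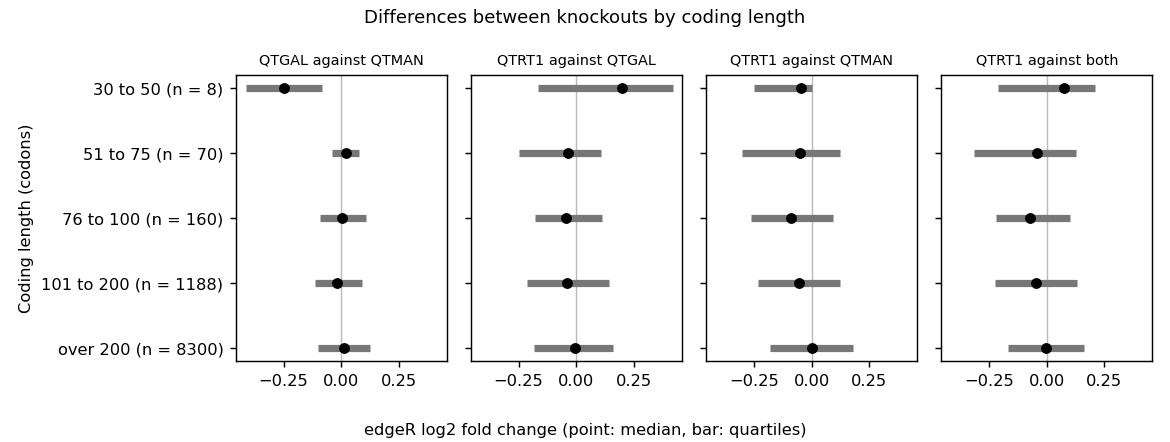
Medians (points) and quartiles (bars) of the edgeR log2 fold change by coding length in codons, for QTGAL against QTMAN knockout and for the QTRT1 library against QTGAL, against QTMAN and against both, with the number of rows in each class. Against both, the medians are -0.043 and -0.071 for 51 to 75 and 76 to 100 codons and -0.048 for over 100 and up to 200, and the 8 rows of up to 50 codons lie in 3 stretches.

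The QTRT1 values of the short rows varied with the place of a row in the table. For each of the 238 sequences, the median deviation of other well counted rows within 500 rows was taken, over 49 rows or more. Rows within 20 rows of the sequence were left out, and a run of identical rows entered as 1 row. Own and local deviation in the QTRT1 library correlated at r = 0.44 over the 238 rows and 0.51 over 112 rows, 1 per stretch. These points share the library and its scaling, so this is a description. With the local shift taken off, the median against both was -0.0031 in place of -0.060, and 118 of 238 lay under their local median. The median of all rows moved too, to 0.015, so the short rows then lay under it by less than before. Against QTMAN alone the median of the short rows became -0.016, with 0.0073 over all rows. Against QTGAL alone it became -0.028, with 0.017 over all rows, so there the distance from all rows did not shrink. What shifts neighbouring rows together was not tested.

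**Figure D5:**
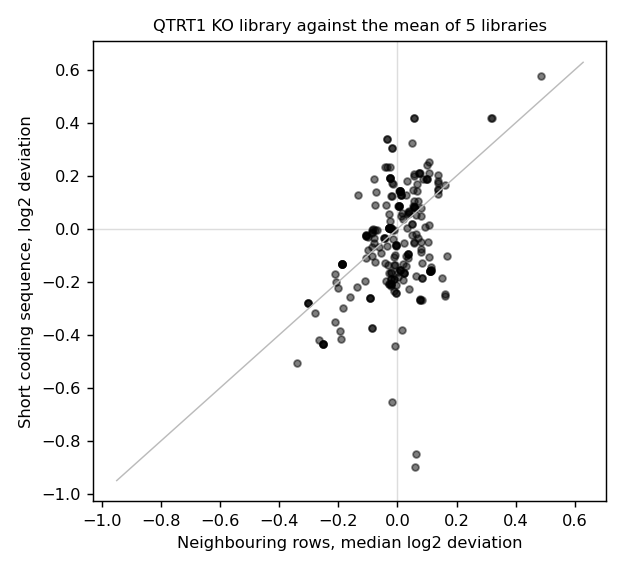
Log2 deviation of each short sequence in the QTRT1 library from the mean of the 5 libraries (vertical axis) against the median of other well counted rows within 500 rows (horizontal axis), with the line of equal values. The correlation is 0.44 over 238 rows, and the lowest 2 points, uc002aly.4 and uc059kbv.1, lie far under the line.

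The row with the smallest p lay on the low side. It was uc002mjn.4, of 70 codons, with 97.4 CPM without QTRT1, 145 and 150.4 CPM in QTGAL and 155 and 154.5 CPM in QTMAN knockout. The 4 other libraries lay close together and the QTRT1 library below them all. The log2 fold change against both was -0.63 ± 0.12 (SE, edgeR adjusted p = 0.0787). It is the row that DESeq2 called, against QTMAN and against both. With 1 QTGAL or QTMAN library left out, its log2 fold change against both ran from -0.65 to -0.61. The row was also called in all 3 QTRT1 comparisons with no filter on low counts. Its neighbours within 500 rows stood at -0.34 in the QTRT1 library and from 0.048 to 0.16 in the other 4. With the local shift of every library taken off, the log2 fold change was -0.20. The row uc060rdq.1, of 57 codons and 1 of 4 with identical counts, had 23.9 CPM against 34.4 to 35.5 CPM in the others. The fitted log2 difference was -0.55 ± 0.14 (SE, edgeR adjusted p = 0.177). Its neighbours stood at -0.25 in the QTRT1 library, and -0.24 remained with the local shift of every library taken off.

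On the high side, uc057xpd.1, of 68 codons, had 55.0 CPM without QTRT1, 38.6 and 42.0 CPM in QTGAL and 35.4 and 37.0 CPM in QTMAN knockout. Its log2 fold change against both was 0.53 ± 0.13 (SE, edgeR adjusted p = 0.159). Its neighbours stood at 0.056 in the QTRT1 library, and 0.45 remained with the local shift of every library taken off. This row was called against both with no filter on low counts. With 1 QTGAL or QTMAN library left out, its log2 fold change against both ran from 0.50 to 0.56. The row uc002lic.3, of 55 codons, had 14.8 CPM against 6.46 and 9.01 CPM in QTGAL and 10.1 CPM in each QTMAN library. The fitted log2 difference was 0.76 ± 0.19 (SE, edgeR adjusted p = 0.177). Its neighbours stood at 0.49 in the QTRT1 library, and 0.15 remained with the local shift of every library taken off. This row, too, was called against both with no filter on low counts. With 1 QTGAL or QTMAN library left out, its log2 fold change against both ran from 0.64 to 0.88. The counts of a longer row within 10 rows summed to 100.6% of the sum of uc002lic.3.

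The widest spread over libraries was in a pair of rows that were chosen after their values were seen. The row uc002aly.4, of 85 codons, had 14.1 CPM without QTRT1, 40.6 and 21.5 CPM in QTGAL replicates 1 and 2, and 41.6 and 26.5 CPM in QTMAN replicates 1 and 2. The row uc059kbv.1, of 98 codons in the same stretch, had 11.8, 33.5, 16.1, 34.4 and 21.7 CPM in the same order. In both rows replicate 1 of each genotype lay well above replicate 2, and the QTRT1 library lay below all 4. The log2 fold changes against both were -1.22 and -1.17 (edgeR adjusted p = 0.199 and 0.246). Neighbouring rows stood at 0.060 and 0.062 in the QTRT1 library, and the values with the local shift taken off were -1.29 and -1.25. Without QTGAL replicate 1, the log2 fold change of uc002aly.4 against QTGAL was -0.61, and without QTGAL replicate 2 it was -1.52. Both rows were called in all 3 QTRT1 comparisons with no filter on low counts. They were also called in all 3 with the replicate numbers as a block, a fit that leaves 1 residual degree of freedom.

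At the edge of the count minimum, the sparsest sequences kept were uc001ewq.4, of 91 codons with 514 counts, and uc002ffu.4, of 80 codons with 533. The nearest rows outside were uc003eqk.5 and uc003eqi.4, adjacent rows of 75 codons with 487 counts each. These edges correspond to 5.65 and 6.66 counts per codon inside and 6.49 outside.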

How the data were processed

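The authors deposited 1 table for each library, with whole-number footprint counts, not normalized, and a length beside each transcript identifier. Per the submitters' processing notes, bcl2fastq 2.19, CASAVA and STAR 2.7.0a were used with build hg38. The sources used here do not give the annotation, counting program or strand setting, and footprints of isoforms, paralogs or overlapping genes may be counted in several rows. The deposited length (1 to 35992, 33.1% multiples of 3) was read as codons, and whether it includes the stop codon is not given either. The 88482 rows without a length have 0 counts.

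edgeR 4.0.16 in R 4.3.3 was run on all rows with a length: filterByExpr by genotype (60966 rows), TMM factors, glmQLFit and glmQLFTest, 1 mean per genotype over 5 libraries, Benjamini-Hochberg adjustment over all rows tested, calls at an adjusted p under 0.05. On simulated data the test was checked for the recovery of large changes in QTGAL against QTMAN, while false calls and the QTRT1 comparisons were not simulated. DESeq2 1.42.0 was an alternative. Local centring (other rows of at least 500 counts within 500 rows, log2 of CPM plus 0.5) was added after seeing the data. It left out rows within 20 rows and kept 1 row per run of identical rows. Named rows were the 3 densest per length band, and the 2 per direction of smallest p without overlap in 2 comparisons, 1 per stretch. Members and lists were chosen with earlier results of these data known. Planned gene lists were not run, as no table used here pairs the identifiers with symbols. Replicates were numbered in accession order.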

Additional observations from a re-analysis of the deposited data

How the results depend on the processing

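Over the 4 comparisons, the counts of short sequences called stayed at 0 with RLE size factors, at least 5 CPM in 2 libraries, 1 row per run of identical rows (187 sequences tested) and local centring. DESeq2 called 0 for QTGAL against QTMAN, where it called 12 of 4231 among all rows with an adjusted p. For the QTRT1 library it called 0, 1 and 1 against QTGAL, QTMAN and both. Among all rows with an adjusted p these were 51 of 14868, 163 of 12505 and 165 of 27870. With no filter on low counts edgeR called 282, 645, 1159 and 1161 of all 79348 rows in the 4 comparisons. Of the short sequences it called 0 for QTGAL against QTMAN, 4 for QTRT1 against QTGAL, 6 against QTMAN and 7 against both. With 1 library left out, calls ranged from 0 to 9 for QTGAL against QTMAN, 0 to 7 against QTGAL, 0 to 4 against QTMAN, and 0 to 7 against both. Leaving out a QTGAL or QTMAN library leaves 1 residual degree of freedom. Each such fit that called short sequences also called more of all rows than the fit on all 5 libraries. The calls with a library left out are therefore not read as a result about short frames. The replicate numbers follow accession order, and no label pairs them. With them as a replicate block, which also leaves 1 residual degree of freedom, edgeR called 49, 145, 567 and 464 of all 60966 rows. Of the short sequences it called 0, 2, 3 and 3 in the same order. These were uc002aly.4 and uc059kbv.1 in all 3 QTRT1 comparisons, and uc002mjn.4 against QTMAN and against both. The deviations of QTGAL and QTMAN replicate 1 correlated at 0.19. The median log2 fold change of QTGAL against QTMAN ran from -0.031 to 0.039 when 1 library was left out. Local centring moved the median of QTRT1 against QTMAN to -0.016 and against both to -0.0031, and that against QTGAL to -0.028, while the medians of all rows moved to 0.0073, 0.015 and 0.017, in that order. The cause of these changes was not tested.

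A minimum of 250 or 1000 counts moved the median density to 0.243 or 0.587 CPM per codon, a reach of 20 rows to 0.4995, and leaving out rows at 90% of the counts to 0.404. With no row left out there were 2000 sequences at a median of 0.184 CPM per codon, and the QTRT1 share minus that of both was -0.198 percentage points. That set includes the rows whose footprints may be those of a longer frame. The difference between libraries of 1 genotype is not given for that set, so the value is not weighed against that spread.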
